A study of Mus musculus with 2 samples.

Results

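The glucocorticoid receptor gene Nr3c1 and 8 genes known as its targets, Fkbp5, Tsc22d3, Zbtb16, Klf9, Sgk1, Tat, Mt1 and Mt2, were examined in spatial transcriptomics (ST) of mouse liver. They were picked by gene symbol, and all 9 were found among the 19465 genes of the feature tables. Liver sections came from 1 mouse with a myeloid cell-specific knockout of AEG-1 (AEG-1ΔMAC, spelled AEG-1DMAC in the sample labels) and from 1 AEG-1 floxed mouse (AEG-1fl/fl, the floxed control). AEG-1, also called metadherin, is encoded by Mtdh. Both mice carried the floxed allele, and in AEG-1ΔMAC it is deleted by Cre recombinase driven from the Lyz2 locus, which is active in macrophages, neutrophils and other myeloid cells and not in hepatocytes. Both mice were 27 weeks old. The sample labels give them a high fat/high sugar diet from 7 weeks of age, for 20 weeks, while the study's methods place this assay on littermates fed a control diet, so the diet of these 2 mice is not settled. Each genotype had 1 section and no replicate. No difference described here could therefore be set against a spread between mice, no p-value was computed, and genotype, mouse, section and capture area cannot be told apart.

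Glucocorticoids bind the receptor in the cytoplasm, where it is held by heat shock protein chaperones. The receptor then enters the nucleus, binds response elements in DNA and raises transcription of some genes while it lowers that of others, many of them inflammatory. In liver this pathway is known for amino acid breakdown, gluconeogenesis and the response to fasting and stress, and the hormone itself rises and falls over the day.

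After spots with over 50000 UMIs or outside 100 to 7000 genes were removed, 2140 AEG-1ΔMAC spots with 45453286 UMIs and 2540 AEG-1fl/fl spots with 50322850 UMIs remained. A UMI is a unique molecular identifier and stands for 1 captured probe pair, and a spot is a small region that holds several cells. The median spot had 20929.5 UMIs in AEG-1ΔMAC and 18285 in the floxed control, and 1782 spot barcodes occurred in both libraries, as positions of the capture grid do. Levels are UMIs summed over spots per 1000000 UMIs of the library (CPM), with exact Poisson 95% intervals. Because probes differ in how well they bind, a level was compared between libraries or spots for the same gene and not between genes. The intervals cover counting error only. The targeted gene Mtdh was at 66.3 CPM in AEG-1ΔMAC and 60.2 CPM in the floxed control, a log2 ratio of 0.14, which was at the median of all genes. Lyz2 had 25 and 41 UMIs. All 6 hepatocyte markers were detected, at a summed 168525 CPM in AEG-1ΔMAC and 227654 CPM in the floxed control, and no marker of any listed cell type was at 0. Y-linked genes were at a summed 115.7 and 110.6 CPM.

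Fkbp5 and Zbtb16 RNA was over 2-fold higher in AEG-1ΔMAC liver than in the floxed control liver. Klf9 and Tsc22d3 were higher by a smaller factor. Nr3c1 and Tat were slightly higher, Sgk1 and Mt2 were close to equal, and Mt1 was lower. Of the 9 genes, 2 were higher at a ratio of at least 2 with the 95% interval on the same side of 1, and 0 were lower. Over the 6933 genes that reached 10 CPM on average in the libraries, 1.27% were higher and 0.519% were lower by the same rule. The 9 genes were taken with earlier results of these data known, so their counts beside this background are descriptions. At a ratio of at least 1.5, 4 of the 9 were higher and 0 lower, and the background was 4.30% higher and 1.79% lower. With a minimum mean of 1 CPM the counts for the 9 genes were the same, beside 1.74% of all genes higher and 1.55% lower. With a minimum of 50 CPM, which Zbtb16 and Sgk1 do not reach, 1 gene was higher, beside 1.60% higher and 0.550% lower. The median log2 ratio of the 9 genes was 0.36. That of all genes was 0.15, with 5th and 95th percentiles of -0.29 and 0.54, and 6 of the 9 lay above it.

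**Figure D1:**
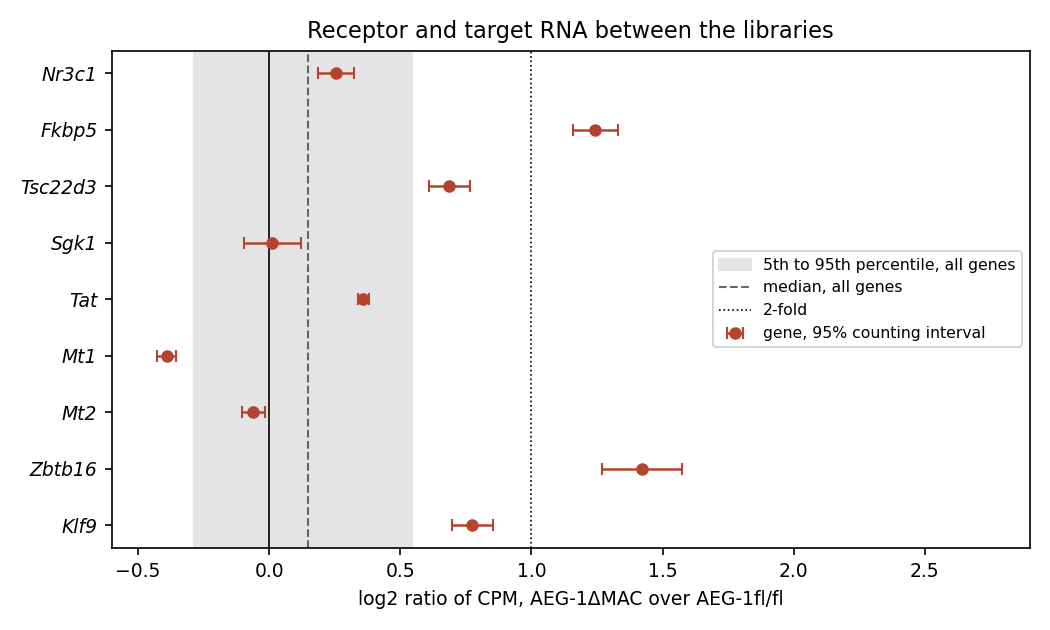
The genotype log2 ratio (CPM in AEG-1ΔMAC over CPM in the floxed control) on the x axis for the receptor gene and its 8 targets on the y axis, with bars for the exact 95% interval from counting. Zbtb16 at 1.42 and Fkbp5 at 1.24 lie past the dotted 2-fold line, Tsc22d3 and Klf9 lie beyond the grey band that holds the 5th to 95th percentile of all genes, and Mt1 at -0.39 lies below that band.

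Nr3c1 (ENSMUSG00000024431, chromosome 18, 39410545 to 39519421, minus strand, GRCm38) encodes the receptor. It had 3577 UMIs in AEG-1ΔMAC, or 78.7 CPM (76.1 to 81.3), and 3318 UMIs in the floxed control, or 65.9 CPM (63.7 to 68.2). The log2 ratio was 0.26 (0.19 to 0.32), or 0.11 above the all-gene median. The receptor RNA was thus slightly higher in AEG-1ΔMAC, and 72.8% of all genes had a lower ratio.

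Fkbp5 (ENSMUSG00000024222, chromosome 17, 28399094 to 28517527, minus strand) encodes a co-chaperone that lowers the affinity of the receptor for hormone and is itself induced by the receptor. Its level was 74.9 CPM (72.4 to 77.5) in AEG-1ΔMAC against 31.6 CPM (30.1 to 33.2) in the floxed control, from 3406 and 1592 UMIs. This was 2.37-fold higher in AEG-1ΔMAC, a log2 ratio of 1.24 (1.16 to 1.33), above that of 99.2% of all genes. The difference was present in each part of the lobule, as described below.

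Zbtb16 (ENSMUSG00000066687, chromosome 9, 48654297 to 48836222, minus strand) encodes a zinc finger repressor of transcription. Its level was 27.0 CPM (25.5 to 28.6) in AEG-1ΔMAC against 10.1 CPM (9.24 to 11.01) in the floxed control, from 1228 and 508 UMIs. At 2.68-fold, or a log2 ratio of 1.42 (1.27 to 1.57), it had the highest ratio of the 9 genes, above that of 99.4% of all genes. Klf9 (ENSMUSG00000033863, chromosome 19, 23141226 to 23168134, plus strand), which encodes a Krüppel-like transcription factor, was at 74.7 CPM (72.2 to 77.2) in AEG-1ΔMAC against 43.7 CPM (41.9 to 45.5) in the floxed control. Its log2 ratio was 0.77 (0.70 to 0.85), a 1.71-fold difference that did not reach 2-fold.

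Tsc22d3 (ENSMUSG00000031431, chromosome X, 140539528 to 140600659, minus strand) encodes a leucine zipper protein, also called GILZ, that carries part of the anti-inflammatory action of glucocorticoids. It was at 71.4 CPM (68.9 to 73.9) in AEG-1ΔMAC against 44.4 CPM (42.6 to 46.3) in the floxed control, a log2 ratio of 0.69 (0.61 to 0.76). Tat (ENSMUSG00000001670, chromosome 8, 109990437 to 109999803, plus strand) encodes tyrosine aminotransferase, a hepatocyte enzyme of tyrosine breakdown and a classical glucocorticoid target. Its level was 939.3 CPM (930.4 to 948.2) in AEG-1ΔMAC against 732.2 CPM (724.7 to 739.7) in the floxed control. The 1.28-fold difference, a log2 ratio of 0.36 (0.34 to 0.38), was well resolved by 42693 and 36846 UMIs, yet it was 0.21 above the median of all genes and inside their 5th to 95th percentile.

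Sgk1 (ENSMUSG00000019970, chromosome 10, 21882184 to 21999903, plus strand) encodes the serum- and glucocorticoid-regulated kinase. It was at 28.3 CPM (26.8 to 29.9) in AEG-1ΔMAC against 28.1 CPM (26.6 to 29.6) in the floxed control, and the log2 ratio of 0.01 (-0.10 to 0.12) had an interval on both sides of 0. On the scale of all genes this was -0.13 relative to the median, so the sign of the Sgk1 ratio depended on the scaling.

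Metallothioneins are small cysteine-rich proteins that bind zinc and copper, and their genes are induced by metals through the factor MTF1 as well as by glucocorticoids and inflammation. Mt1 (ENSMUSG00000031765, chromosome 8, 94179082 to 94180327, plus strand) was at 225.5 CPM (221.1 to 229.9) in AEG-1ΔMAC against 295.7 CPM (290.9 to 300.5) in the floxed control. It was 1.31-fold higher in the floxed control, a log2 ratio of -0.39 (-0.43 to -0.35), and 3.23% of all genes had a lower ratio. Mt2 (ENSMUSG00000031762, chromosome 8, 94172664 to 94173568, plus strand) was at 167.4 CPM (163.7 to 171.2) and 174.6 CPM (170.9 to 178.3), a log2 ratio of -0.06 (-0.10 to -0.02). The genes are neighbours of similar sequence. How the probe set separates them is not given in the sources used here.

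A section holds many cell types, so a lower level can come from fewer cells of a type or from less RNA per cell, and these cannot be told apart. The difference was also looked for in single spots, after each spot was thinned to 10000 UMIs. This left 2114 AEG-1ΔMAC and 2434 AEG-1fl/fl spots. A Fkbp5 UMI was found in 51.4% (exact binomial 95% interval 49.2 to 53.5) of AEG-1ΔMAC spots and 26.0% (24.2 to 27.8) of AEG-1fl/fl spots. Before thinning these shares were 76.1% and 45.4%. For Zbtb16 the thinned shares were 23.0% (21.3 to 24.9) and 9.33% (8.20 to 10.6), for Klf9 52.9% and 36.0%, and for Tsc22d3 52.6% and 35.3%. Nr3c1 was found in 54.6% and 47.8% of spots, and Sgk1 in 23.5% and 24.4%. The higher level of the first 4 genes was thus spread over many spots, and before thinning no AEG-1ΔMAC spot had over 5 UMIs of Zbtb16 or 8 of Fkbp5. Tat was found in 100% (99.8 to 100) of AEG-1ΔMAC spots and in 99.9% of AEG-1fl/fl spots, Mt1 in 86.8% and 92.6%, and Mt2 in 74.4% and 78.8%.

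To follow the genes along the liver lobule, the spots of each library were ranked by an index of zone 3 (pericentral, PC) markers minus zone 1 (periportal, PP) markers and divided into 3 equal parts. None of the 9 genes entered the index. As a check, Cyp2c29, a pericentral landmark that did not enter it, had log2 ratios of zone 3 over zone 1 of 2.21 in AEG-1ΔMAC and 2.29 in the floxed control, and the periportal landmark Etnppl had -1.73 and -1.34. All 6 landmarks of zone 3 were at least 1.5-fold higher there in both libraries. Of 8 landmarks of zone 1, 4 were so towards zone 1 in AEG-1ΔMAC and 3 in the floxed control. The landmark zoned in AEG-1ΔMAC and not in the floxed control was Apoa4, with -1.36 and 0.01, a difference of -1.37 between the libraries. Ranks were made within each library, so the parts need not cover the same positions in both lobules.

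Mt1 and Mt2 were zoned in opposite directions in the 2 libraries. In AEG-1ΔMAC their RNA was highest towards zone 1, and in the floxed control it was highest towards zone 3. Mt2 was at 213 CPM in the zone 1 part, 179 CPM in the middle part and 110 CPM in the zone 3 part of AEG-1ΔMAC. In AEG-1fl/fl the same parts had 134, 183 and 207 CPM. The log2 ratio of zone 3 over zone 1 was -0.95 (-1.04 to -0.87) in AEG-1ΔMAC, or 1.93-fold towards zone 1, and 0.63 (0.55 to 0.71) in the floxed control, or 1.55-fold towards zone 3. Mt1 was at 264, 243 and 168 CPM from zone 1 to zone 3 in AEG-1ΔMAC and at 229, 316 and 342 CPM in the floxed control. Its log2 ratios were -0.65 (-0.72 to -0.58) and 0.57 (0.51 to 0.63). The reversal was also present in the typical spot, since the median spot level of Mt2 fell from 179 to 89.5 CPM between the zone 1 and zone 3 parts of AEG-1ΔMAC and was 116 and 193 CPM in those of AEG-1fl/fl.

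Along 10 bins of the index, Mt2 was at 231 CPM in the bin nearest zone 1 and 93.1 CPM in the bin nearest zone 3 of AEG-1ΔMAC, which were its highest and lowest bins. In AEG-1fl/fl it was at 116 CPM in the bin nearest zone 1, reached 224 CPM in bin 8 and was at 181 CPM in the last bin. Mt1 in AEG-1ΔMAC had its highest level, 276 CPM, in bin 3 and its lowest, 146 CPM, in bin 10. In AEG-1fl/fl its lowest level was 206 CPM in bin 1 and its highest 364 CPM in bin 7. The AEG-1fl/fl curves of both genes thus peaked short of the pericentral end.

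**Figure D2:**
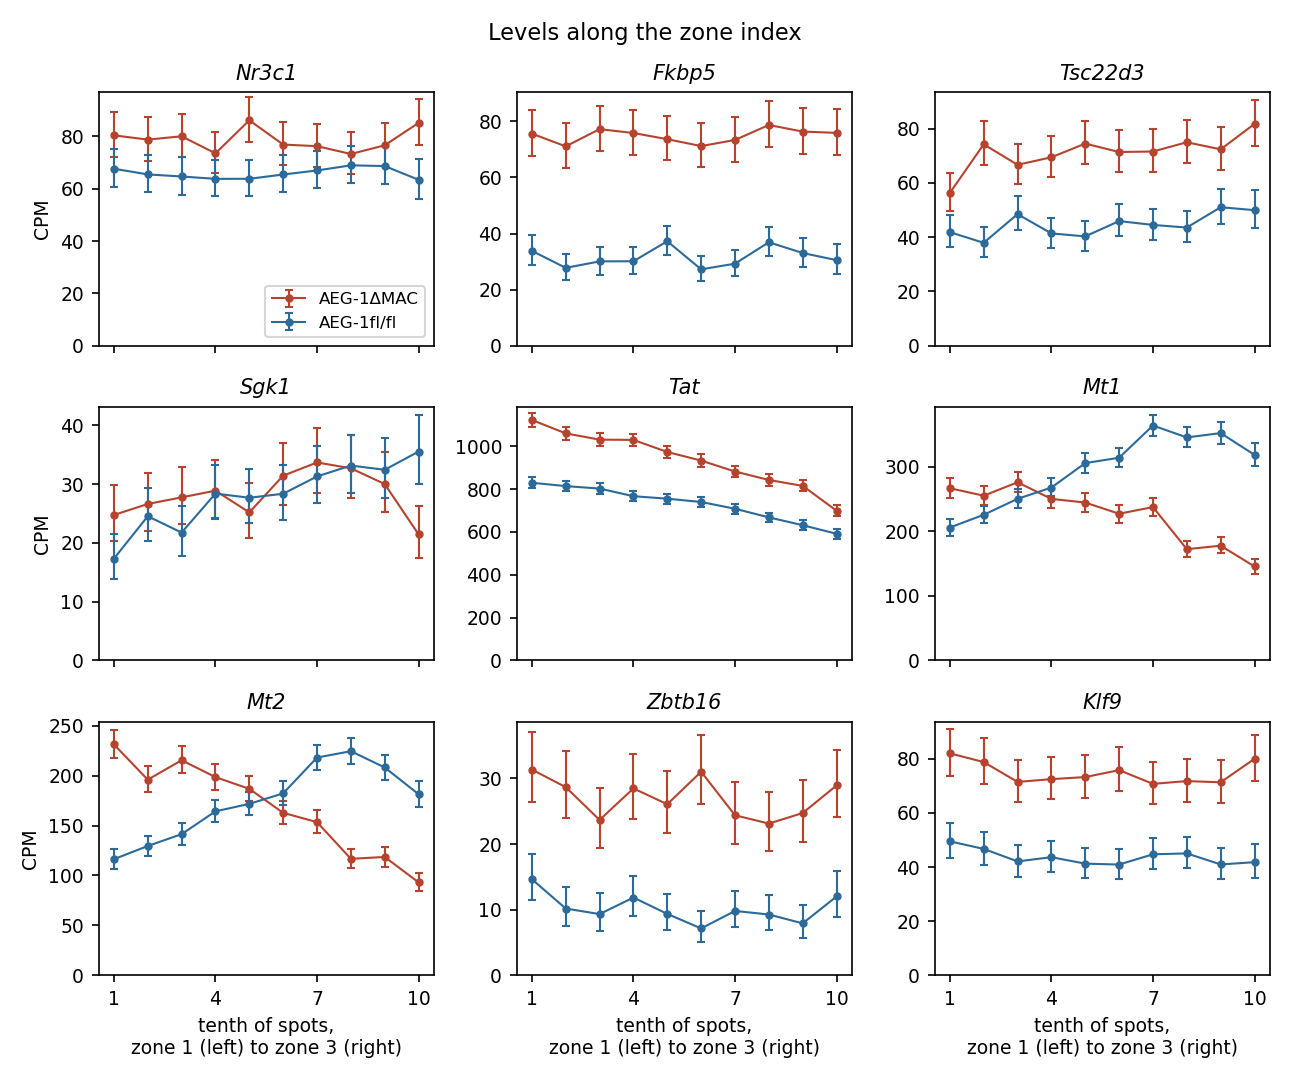
Level in CPM (y axis, from 0) of each of the 9 genes in 10 bins of equal spot number along the zone index (x axis, zone 1 at left), in AEG-1ΔMAC (red) and AEG-1fl/fl (blue), with exact Poisson 95% intervals. The curves of Mt1 and Mt2 cross, those of Fkbp5, Zbtb16, Klf9 and Tsc22d3 run apart at every bin, and both Tat curves descend towards zone 3.

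A zone ratio of at least 1.5 with its interval on the same side of 1 was reached in AEG-1ΔMAC by 2 of the 9 genes, Mt1 and Mt2, towards zone 1. Over all 6924 genes tested, 1.95% were zoned towards zone 1 and 2.93% towards zone 3 in that library. In AEG-1fl/fl it was reached by 1 of the 9, Mt2, towards zone 3, where the background was 2.80% towards zone 3 and 1.68% towards zone 1. Sgk1 and Mt1 lay just below the limit there, at 1.495-fold and 1.489-fold. Ratios on opposite sides of 1 in the libraries, both with intervals that leave out 1, were found for 0.419% of all genes in the direction of Mt1 and Mt2 and for 0.202% in the other. The difference of the log2 zone ratios, AEG-1ΔMAC minus AEG-1fl/fl, was -1.58 for Mt2, the lowest of the 6924 genes, and -1.22 for Mt1, which ranked 8 from the lowest. The 5th and 95th percentiles of this difference were -0.31 and 0.29. With 1 library per genotype, it could not be tested.

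**Figure D3:**
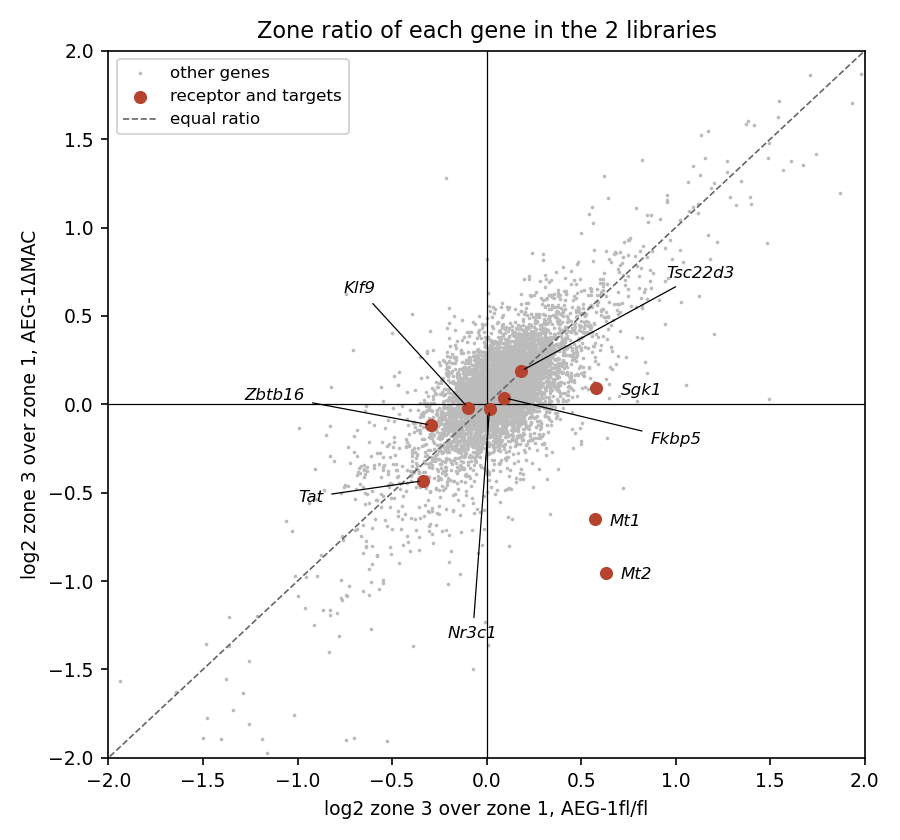
Log2 ratio of zone 3 over zone 1 in the floxed control (x axis) and AEG-1ΔMAC (y axis), with a grey dot for each other gene and red points for the receptor gene and its targets. Of the genes, 6897 are drawn and 27 lie beyond the axes. Mt1 and Mt2 sit in the lower right corner area, away from the cloud, and Sgk1 lies to the right of it.

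With this reversal, the genotype ratio of the metallothionein genes changed sign along the lobule. In the zone 1 part the log2 ratio of AEG-1ΔMAC over AEG-1fl/fl was 0.21 (0.14 to 0.27) for Mt1 and 0.67 (0.59 to 0.75) for Mt2. In the zone 3 part it was -1.02 (-1.09 to -0.95) for Mt1 and -0.91 (-1.0 to -0.83) for Mt2. The near-equal whole-section level of Mt2 was therefore an average of a higher zone 1 level and a lower zone 3 level.

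Sgk1 was higher towards zone 3 in the floxed control, just short of 1.5-fold, at 22.1, 29.0 and 33.1 CPM from zone 1 to zone 3, and less so in AEG-1ΔMAC, at 27.4, 28.4 and 29.1 CPM. Its log2 zone ratios were 0.58 (0.39 to 0.78) and 0.09 (-0.11 to 0.29), with a difference of -0.49 that ranked 98 from the lowest of 6924 genes. In AEG-1fl/fl the level ran from 17.3 CPM in bin 1 to 35.6 CPM in bin 10, while AEG-1ΔMAC peaked at 33.7 CPM in bin 7 and had its lowest level, 21.5 CPM, in bin 10. Tat decreased towards zone 3 in both libraries, from 1071 to 793 CPM in AEG-1ΔMAC and from 810 to 642 CPM in the floxed control. Its log2 zone ratios of -0.43 (-0.47 to -0.40) and -0.33 (-0.37 to -0.30) pointed the same way and were short of 1.5-fold. Between the outer 10% of spots at each end they were -0.68, past 1.5-fold, and -0.49.

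The remaining 5 genes had little zonation. Tsc22d3 was slightly higher in zone 3, with log2 zone ratios of 0.19 (0.06 to 0.31) in AEG-1ΔMAC and 0.18 (0.03 to 0.33) in the floxed control. For Nr3c1, Fkbp5, Zbtb16 and Klf9 the intervals included 0 in both libraries, and the ratios lay between -0.29 and 0.09. The genotype difference of Fkbp5 was of similar size in each part, with log2 ratios of 1.28, 1.24 and 1.22 from zone 1 to zone 3. Zbtb16 had 1.22, 1.67 and 1.39, Klf9 had 0.72, 0.81 and 0.79, and Tsc22d3 had 0.66, 0.72 and 0.67.

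The promoters of the metallothionein genes and of Sgk1 are shown because they held response element letters. Windows of 300 bases, from 250 before to 50 after each RefSeq start site, existed for 7 of the 9 genes (14 windows; GRCm38.p6). Each was searched on both strands for the glucocorticoid response element, written as GNACANNNTGTNC, and for the metal response element, written as TGCACNC or TGCGCNC. The first was in 0.475% of all 32851 promoter windows and the others in 12.6% and 15.4%. Capitals below mark matches, and positions count from 0 at the start site.

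Mt1, chr8:94178949-94179081, plus strand, from position -140: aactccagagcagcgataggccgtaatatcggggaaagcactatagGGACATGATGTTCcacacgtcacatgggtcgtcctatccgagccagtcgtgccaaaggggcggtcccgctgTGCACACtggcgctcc
Mt1, chr8:94179087-94179116, plus strand, from position -2: gctcTGCACTCcgcccgaaaagTGCGCTCg
Mt2, chr8:94172368-94172617, plus strand, from position -250: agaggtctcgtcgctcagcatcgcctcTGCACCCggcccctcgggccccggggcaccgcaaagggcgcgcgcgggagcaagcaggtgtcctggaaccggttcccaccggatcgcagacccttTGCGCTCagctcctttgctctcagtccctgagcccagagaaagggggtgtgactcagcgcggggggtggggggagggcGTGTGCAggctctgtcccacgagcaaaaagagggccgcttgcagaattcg
Sgk1, chr10:21993642-21993774, plus strand, from position -248: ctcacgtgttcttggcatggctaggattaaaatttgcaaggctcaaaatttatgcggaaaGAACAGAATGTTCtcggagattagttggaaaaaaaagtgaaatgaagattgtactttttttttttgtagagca

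The Mt1 window held 1 glucocorticoid match, at -94, and 3 metal matches, at -23, 2 and 20. The Mt2 window held 4 metal matches, of which the one at 4 is not printed, and no glucocorticoid match. At least 3 metal matches were in 1.97% of all windows and at least 4 in 0.517%. In Sgk1, 1 of 6 windows held the glucocorticoid element, at -188 of a start site inside the gene. With a base on either side this site also fits the stricter form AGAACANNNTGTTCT, which was in 3 of the 32851 windows. Another Sgk1 window, which is not printed, held 1 metal match, at 11, and at least 1 was in 25.7% of all windows. Neither element was in the windows of Fkbp5, Tsc22d3, Tat and Klf9. Sequence outside the 300-base windows was not searched, so these genes may hold elements elsewhere. A match is a description of these letters and not of binding.

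Metallothionein RNA also stood apart in how unevenly it was spread over single spots. The variance of the counts over spots was 4.48 times that of Poisson counting for Mt1 and 5.36 times for Mt2 in AEG-1ΔMAC, against 1.63 and 1.64 in the floxed control. For Tat it was 1.60 and 1.27, and for the other 6 genes it was between 0.97 and 1.103. A few AEG-1ΔMAC spots held much of this. The median AEG-1ΔMAC spot had 342 CPM of Mt1 and Mt2 together, and the highest had 15231 CPM, or 250 of its 16414 UMIs. The next had 7869, 4733 and 4213 CPM. In AEG-1fl/fl the median was 442 CPM and the highest spot had 3248 CPM, or 45 of its 13855 UMIs.

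The 1% of spots with the most Mt1 and Mt2 RNA, 22 in AEG-1ΔMAC and 26 in the floxed control, were then compared with the other spots for all other genes. These spots were chosen after the values were seen, so the contrasts are descriptions. The median chosen spot had 19158.5 UMIs in AEG-1ΔMAC, beside 20967 in the other spots, and 13235 beside 18381 in the floxed control. The part of this depth difference in the contrasts was not tested. In AEG-1ΔMAC genes known to be induced by interferon led, ordered by the lower end of the interval of the ratio. Cxcl9, a chemokine induced by interferon-γ, was at 1251 CPM in them and 22.6 CPM in the other spots. Cxcl10 was 37.6-fold higher, the guanylate-binding protein gene Gbp2 31.7-fold and the GTPase gene Igtp 13.3-fold. The acute phase genes Saa3 and Lcn2 were 15.7-fold and 12.1-fold higher. In AEG-1fl/fl Cxcl9 also led, at 149 against 10.0 CPM, followed by Gbp2, 9.12-fold higher, and Igtp, 3.08-fold higher. The next gene in this order was the apolipoprotein gene Apoa4, 2.02-fold higher. Cxcl10 and Saa3 were 8.61-fold and 3.56-fold higher there, but their 17 and 9 UMIs were short of the 20 needed to enter the order. Lcn2 had 3 UMIs there. Cxcl9, Gbp2 and Igtp had 58, 23 and 32 UMIs in the 26 AEG-1fl/fl spots. The AEG-1fl/fl spot highest in Mt1 and Mt2 alone held 165 UMIs of the 10 interferon-γ induced genes described next. These ratios of interferon-induced genes were not computed without that spot.

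Of the 10 leading genes in AEG-1ΔMAC, 7 are also in a list of 10 interferon-γ induced genes that was drawn up after this result, so the converse choice of spots is no independent evidence. The 1% of spots richest in this list had more Mt1 and Mt2 RNA in AEG-1ΔMAC. The log2 ratio over the other spots was 2.41 (2.28 to 2.53) for Mt1 and 2.89 (2.77 to 3.02) for Mt2, or 5.31-fold and 7.44-fold. Without the highest spot the log2 ratios were 2.04 and 2.64. Of the 22 spots, 12 were also among the 22 richest in metallothionein RNA (54.5%). In AEG-1fl/fl the log2 ratios were 0.63 (0.41 to 0.85) and 0.62 (0.32 to 0.90), and without its highest spot they were 0.48 (0.24 to 0.71) and 0.34 (0.02 to 0.66). There 2 of the 26 spots (7.69%) were in both sets. The spots richest in this list had a median of 22412 UMIs, beside 20922.5 in the others, in AEG-1ΔMAC. In AEG-1fl/fl they had 15031 beside 18370.5 UMIs. The same spot was the highest in both kinds of RNA in each library. The other 7 genes had intervals that all included 0 in both libraries. In AEG-1ΔMAC these intervals ended at 0.66 or lower, below those of Mt1 and Mt2. In AEG-1fl/fl those of Nr3c1 and Fkbp5, up to 0.70 and 1.08 from 29 and 16 UMIs, also held the Mt1 and Mt2 ratios. A rise of Nr3c1 and Fkbp5 like that of Mt1 and Mt2 can therefore not be told there, and Zbtb16 had 1 UMI. Of the 7 genes Tat had the most UMIs, with -0.07 (-0.21 to 0.06) in AEG-1ΔMAC and -0.18 (-0.36 to 0.003) in the floxed control.

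**Figure D4:**
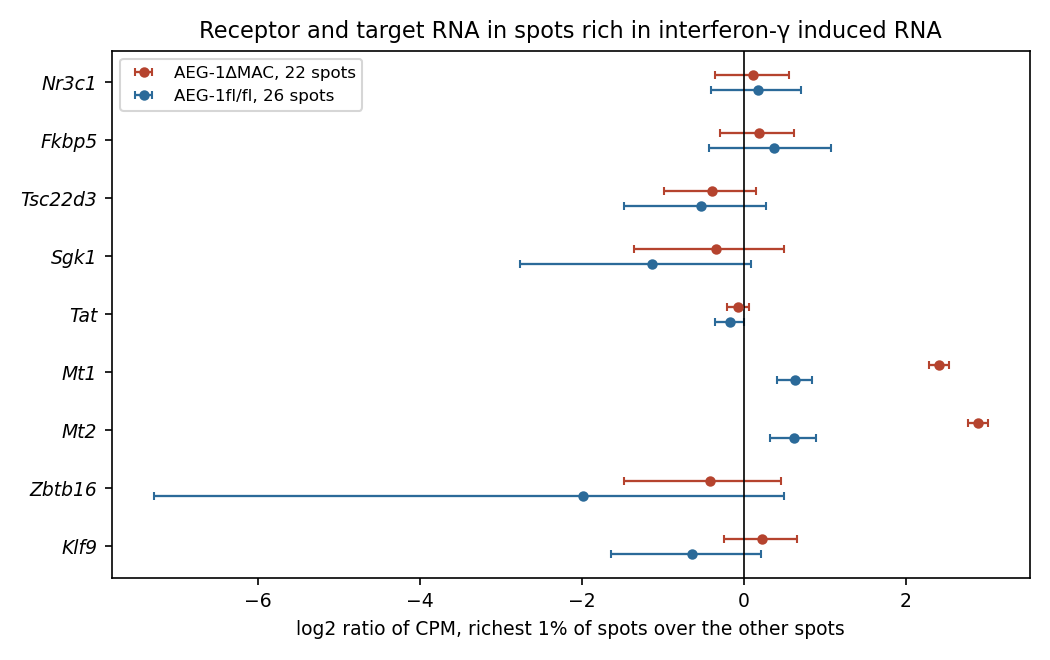
Log2 ratio of CPM in the 1% of spots richest in 10 interferon-γ induced genes over the other spots (x axis) for the receptor gene and its 8 targets (y axis), in AEG-1ΔMAC (red, 22 spots) and AEG-1fl/fl (blue, 26 spots), with exact 95% intervals from counting. Mt1 at 2.41 and Mt2 at 2.89 in AEG-1ΔMAC stand clear of all other points.

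The zone reversal remained when these spots were left out. Without the 1% of spots richest in Mt1 and Mt2, the log2 zone ratio of Mt2 was -0.96 in AEG-1ΔMAC and 0.61 in the floxed control, and that of Mt1 was -0.67 and 0.55. The neutrophil genes S100a8 and S100a9 had zone ratios on the same sides as Mt1 and Mt2, -0.90 (-2.34 to 0.43) and -1.37 (-2.59 to -0.27) in AEG-1ΔMAC and 0.88 (0.41 to 1.36) and 1.06 (0.73 to 1.40) in the floxed control. The summed level of the 4 neutrophil markers was 4.84 and 18.6 CPM. In the tenth of spots richest in those markers, the log2 ratio of Mt2 over the other spots was -0.01 (-0.12 to 0.10) in AEG-1ΔMAC. In the floxed control it was 0.16 (0.06 to 0.26). The markers S100a8, S100a9, Retnlg and Csf3r had 40, 73, 9 and 98 UMIs over the 2140 AEG-1ΔMAC spots. So few UMIs rank spots poorly, and the part of neutrophils in the zone ratios of Mt1 and Mt2 was not tested. Of other metal response genes, the zinc exporter gene Slc30a1 had log2 zone ratios of 0.06 and 0.16, Mtf1, which encodes the metal-responsive factor, -0.17 and -0.14, the importer gene Slc39a14 -0.15 and -0.22, and Gclc 0.16 and 0.01. None of these 4 genes had ratios on opposite sides in the libraries.

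Spots rich in the markers of other cell types were taken as the richest 10%, a wider choice than the 1% above. In the tenth of AEG-1ΔMAC spots richest in T and B lymphocyte markers, Mt1 was at 305.6 CPM against 217.5 CPM in the others and Mt2 at 259.0 against 158.3 CPM, log2 ratios of 0.49 (0.40 to 0.58) and 0.71 (0.62 to 0.80). In AEG-1fl/fl these ratios were 0.02 (-0.06 to 0.10) and 0.03 (-0.08 to 0.14). The lymphocyte-rich AEG-1ΔMAC spots had 1260 Mt1 and 1068 Mt2 UMIs. The 22 AEG-1ΔMAC spots richest in Mt1 and Mt2 had 609 UMIs of each gene. How far these sets of spots overlap was not tested. The lymphocyte markers summed to 16.6 and 14.98 CPM, but the T cell genes Cd3e, Cd3d and Trbc2 were higher in AEG-1ΔMAC (log2 ratios of 0.97, 1.13 and 1.14) and the B cell genes Cd79a and Ms4a1 lower (-1.0 and -1.30). The part of this in the ratios of Mt1 and Mt2 was not tested. Zbtb16 was higher in spots rich in erythroid markers in both libraries, by 0.57 (0.34 to 0.80) and 0.46 (0.07 to 0.84). In spots rich in endothelial markers it had 0.01 (-0.28 to 0.30) in AEG-1ΔMAC and -0.69 (-1.33 to -0.11) in the floxed control, the latter from 25 UMIs. The summed erythroid level was itself lower in AEG-1ΔMAC, at 1017 against 1213 CPM, and its part in the Zbtb16 difference was not tested. Sgk1 in spots rich in endothelial markers had 0.13 (-0.15 to 0.40) and 0.42 (0.16 to 0.67). In spots rich in markers of Kupffer cells, the resident macrophages of the liver, the 9 genes had log2 ratios between -0.43 and 0.17 in the 2 libraries. The summed Kupffer cell level was 566 CPM in AEG-1ΔMAC and 548 CPM in the floxed control, and of its 6 genes Marco was lower by over 2-fold, at 13.9 against 36.1 CPM.

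Across single spots, Mt1 and Mt2 were each the gene most like the other, with Pearson's r of 0.43 over 2140 AEG-1ΔMAC spots and 0.33 over 2540 AEG-1fl/fl spots. Next for Mt1 were Igfbp2, an insulin-like growth factor binding protein, with 0.17 and 0.20, and Fgl1, with 0.16 and 0.17. The same 2 genes followed for Mt2. Tat was most like the zone 1 marker Cyp2f2, with 0.51 and 0.34, then Hpx, with 0.39 and 0.32, and Hsd17b13, with 0.43 and 0.29. Tat and Mt2 had r of 0.17 in AEG-1ΔMAC and -0.12 in the floxed control. For the other 6 genes the best match had r of at most 0.11 in either library, as for Aqp1 with Sgk1 at 0.10 and 0.10. Fkbp5, Tsc22d3, Zbtb16 and Klf9 had r of at most 0.04 with each other, although all were higher in AEG-1ΔMAC. At counts this low such values are descriptions, and spots of a section share its library and depth.

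Of 72 further genes of the pathway in 6 lists, 51 had a mean of at least 10 CPM, and 6 of them were higher in AEG-1ΔMAC by at least 2-fold and 0 lower, beside 1.27% and 0.519% of all genes. All 6 were among the 22 tested genes of the list of other induced targets, whose median log2 ratio was 0.45. The highest was Mfsd2a, a transporter of lysolipids induced by fasting, at 22.5 against 2.56 CPM (log2 ratio 3.13). Lpin1, a phosphatidate phosphatase, was at 119 against 27.6 CPM (2.11). Dusp1, a phosphatase of MAP kinases, was at 105 against 24.4 CPM (2.11). Errfi1, an inhibitor of the EGF receptor, was at 1525 against 376 CPM (2.02). The other 2 were the transcription factor genes Cebpb (1.22) and Cebpd (1.0). Cebpd lay at the limit, and with other library scalings 5 genes were past 2-fold. Of the tested genes of this list Bcl6 had the lowest log2 ratio, -0.86, and then Cdkn1a, -0.72. At a minimum mean of 1 CPM, 7 of the 27 tested genes of the list were higher and 1 lower. Over all genes 1.74% were higher and 1.55% lower by that rule. The added higher gene was Per1, also a clock gene, at 14.1 against 2.50 CPM (2.49). The lower gene was Pdk4, a kinase of pyruvate dehydrogenase induced by fasting, at 3.70 against 10.6 CPM (-1.51).

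No gene of the other 5 lists passed 2-fold. The 6 receptor chaperones had a median log2 ratio of 0.17. Bag1 had 220.5 and 193.2 CPM and Fkbp4, a co-chaperone related to Fkbp5, 102 and 88.3 CPM. Among 6 genes of hormone supply and clearance the median was 0.14 and none passed. Hsd11b1, the enzyme that regenerates active glucocorticoid, was at 706.6 CPM in AEG-1ΔMAC and 577.6 CPM in the floxed control, a log2 ratio of 0.29, and H6pd, which supplies its cofactor, had -0.02. Serpina6, which encodes the corticosteroid-binding globulin of plasma, was at 97.0 against 129.8 CPM (-0.42) and the steroid reductase gene Srd5a1 had -0.36, both below the 5th percentile of all genes. Akr1d1, another steroid reductase gene, had 0.40. Of 10 coregulators none passed, with a median of 0.23. The corepressor gene Ncor1 had 0.14 and Crebbp, which encodes a histone acetyltransferase, 0.20. Of 3 inflammatory genes that glucocorticoids repress none passed, with a median of -0.12. The adhesion molecule genes Vcam1 and Icam1 had -0.24 and -0.12, and the chemokine gene Ccl5 went the other way, at 14.8 against 8.41 CPM (0.82). Of 4 metal response genes none passed, with a median of 0.05, where Gclc, of glutathione synthesis, had -0.42 and Slc30a1 -0.30, while the metal importer gene Slc39a14 had 0.67 and Mtf1 0.39.

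**Figure D5:**
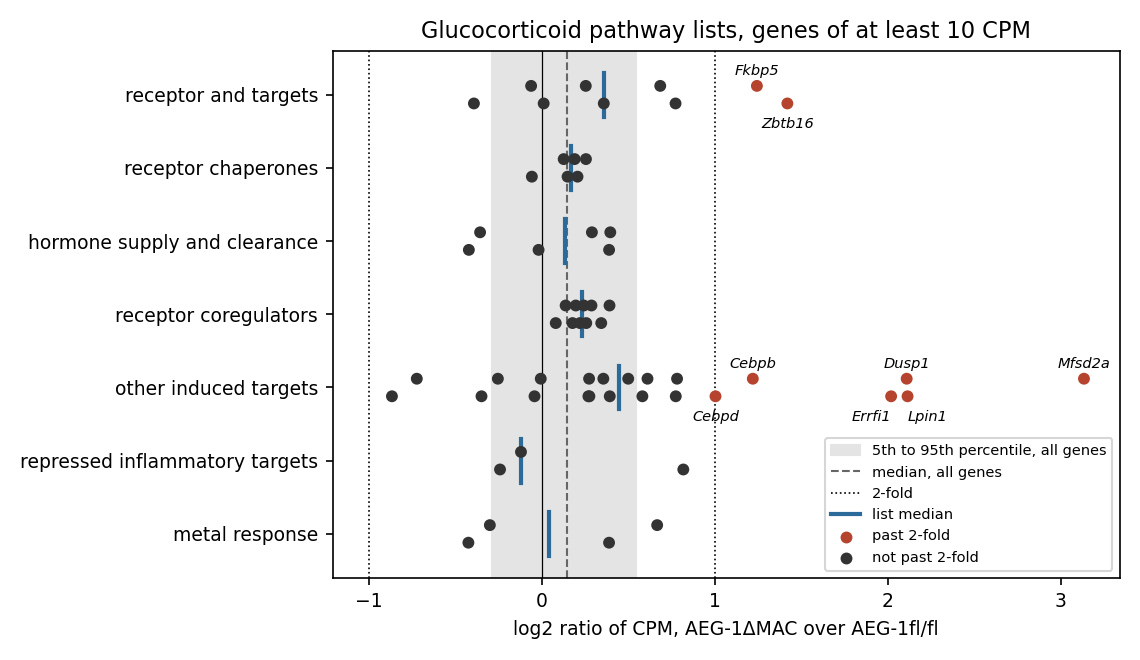
Genotype log2 ratio on the x axis (CPM in AEG-1ΔMAC over CPM in the floxed control) of each gene with a mean of at least 10 CPM in 7 lists (y axis), with blue bars for list medians and the grey band for the 5th to 95th percentile of all genes. The red points past 2-fold are in the top list (Fkbp5 and Zbtb16) and among the other induced targets, 6 genes from Cebpd at 1.0 to Mfsd2a at 3.13, while no gene of the remaining 5 lists is past 2-fold. The lists were chosen with earlier results of these data known.

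Clock genes also differed between the libraries. Of 5 tested clock genes of the evening phase 4 were higher in AEG-1ΔMAC by at least 2-fold, beside 1.27% of all genes. Dbp had a log2 ratio of 2.76, Nr1d1 of 1.42, Nr1d2 of 1.37 and Tef of 1.33, while Cry2 had 0.19, and the summed level of the list was 219.9 against 85.5 CPM. Of 5 clock genes of the morning phase none passed 2-fold, and their median log2 ratio was -0.60. At a minimum mean of 1 CPM, 8 of 9 evening genes were higher, beside 1.74% of all genes. Of 6 morning genes 1 was then lower, Npas2 (-1.24), beside 1.55% of all genes. Of 12 acute phase genes 3 were higher by at least 2-fold, Orm2 (2.44), Socs3 (1.53) and Saa3 (1.17), beside 1.27% of all genes. The median of the list, 0.15, was that of all genes, and Apcs had -0.95. At a minimum mean of 1 CPM, 5 of 14 were higher, beside 1.74% of all genes, and the list median was 0.24. The added genes were Orm3 (4.84, at 10.3 against 0.36 CPM) and Lcn2 (1.73). The clock and acute phase lists were also chosen with earlier results of these data known. The hour of tissue collection is not given in the sources used here. The part of the clock genes or of the acute phase genes in the results for the receptor's targets was not tested.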

How the data were processed

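The authors hybridised probe pairs to formalin-fixed, paraffin-embedded liver sections (10x Visium), and the deposited files hold raw UMI counts per gene and spot from Space Ranger 2.0.1 with mm10. The submitters' notes also list Seurat 4.3.0. Groups came from the genotype labels. The spot limits of the study removed 9 of 2149 and 3 of 2543 deposited spots, although the study gives these totals as those left after its filter. With python 3.11.15, numpy 2.4.6, scipy 1.17.1 and pandas 2.3.3, counts were summed and scaled to CPM, where 10 CPM stood for 455 and 503 UMIs. Ratios had exact conditional binomial (Clopper-Pearson) 95% intervals, tested on simulated data. edgeR 4.0.16 (R 4.3.3) supplied TMM factors as an alternative scaling. Other alternatives changed thresholds, zone index, spot weights and filter. Coordinates came from GENCODE M21.

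The zone index was the mean of scaled log-normalised Cyp2e1, Cyp1a2 and Oat minus that of Pck1, Hal, Gls2, Cyp2f2, Hsd17b13 and Arg1. Spots ranked by Mt1 and Mt2 or by the interferon-γ list (Cxcl9, Gbp2, Gbp5, Gbp6, Igtp, Ifi47, Irgm1, Iigp1, Irf1 and Socs1) needed 1000 UMIs, and genes compared there 20. This list and the alternatives without 1% of spots were chosen after seeing the data.

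The genes and lists were chosen with earlier results of these data known. All 9 genes were named, and of other lists genes past 2-fold, at most the 4 largest each way, or else the 2 of highest mean CPM. Cebpb, Cebpd, Bcl6, Cdkn1a, Pdk4, Per1, Npas2, Orm3, Lcn2, Serpina6, Srd5a1, Akr1d1, Ccl5, Slc39a14, Mtf1, Cry2, Apcs, Apoa4, genes of marker lists, metal response genes in zones, and genes named in spot checks were chosen after their values were seen. Hsp90ab1, Hspa8, Ptges3, Cxcl2, Ciart, Bmal1, Saa1, Saa2 and Hba-a1 were not analysed here. Of the lists, 2 more genes are not reported here and were left out of the lists’ values.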

Additional observations from a re-analysis of the deposited data

Results flagged for a closer look

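The zone ratios of Mt1 and Mt2 were on opposite sides in the 2 libraries. The difference of the log2 ratio of zone 3 over zone 1, AEG-1ΔMAC minus AEG-1fl/fl, was -1.22 for Mt1 and -1.58 for Mt2. With 1 library per genotype these differences were not tested.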

How the results depend on the processing

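No paired analysis was possible because each genotype had 1 library, and for the same reason no replicate could be left out. Under the alternatives run, 100 summary values stayed within the limits set for a change and 16 did not, 161 single-gene values did and 37 did not, and no value whose interval left out equality reversed. The median log2 ratio of the 9 genes was 0.24 with TMM factors, 0.23 with median-of-ratios size factors and 0.22 without the 50 most abundant genes. The median of all genes was then 0.02, 0.02 and 0.00, and Sgk1 had -0.11, -0.12 and -0.13. Without the 50 most abundant genes 1 other pathway gene, Bcl6, was lower. Of the 9 genes 4 were higher, and so called, at a ratio of at least 1.5, and 1 at a mean of at least 50 CPM. Other pathway genes higher numbered 5 with each of the 3 scalings and without either 1% of spots. Genes zoned in AEG-1ΔMAC, towards zone 1, numbered 3 in the outer 10% of spots, with Tat, and 0 at a zone ratio of at least 2. Genes zoned in AEG-1fl/fl, towards zone 3, numbered 3 in the outer 10% of spots and 2 in spots matched on UMIs (1781 per library). At a zone ratio of at least 2 they numbered 0. For the other scalings, spot choices and zone settings the share of all genes was not computed. The counts under them therefore have no background and are descriptions. Under all zone alternatives run, the log2 zone ratio was -0.87 to -0.60 for Mt1 and -1.31 to -0.87 for Mt2 in AEG-1ΔMAC, and 0.53 to 0.63 and 0.55 to 0.64 in AEG-1fl/fl. The genotype log2 ratio of Mt2 was -0.20 to -0.03. The causes were not tested. Zbtb16 in AEG-1fl/fl, with 508 UMIs, had the lowest counts of the 9 genes, and its zone ratio had an interval of -0.60 to 0.02.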
